A study of Rattus norvegicus with 7 samples.

Results

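Hbegf, Egfr, Pdgfa, Pdgfra, Fgf2, Fgfr1, Vegfa and Ptn encode ligands and receptors of the EGF, PDGF, FGF and VEGF systems and the related growth factor pleiotrophin. They were measured in cultured rat hippocampal neurons and astrocytes given grape seed extract, a source of plant polyphenols. The members were chosen by gene symbol, and all probe sets that the platform annotation gave to these symbols were taken. All 8 genes were on the array, with 19 probe sets between them, of 4736 genes and 8740 probe sets in all. Neurons had received 0, 1 or 10 µg/ml of the extract for 24 h, and astrocytes 0, 1, 10 or 100 µg/ml. The cells came from Wistar rats. The labels give an age of 17 days without saying whether this was before or after birth. All cultures shared DMEM with glutamine, N1 supplement, penicillin and streptomycin. With a single array for each of the 7 combinations, the error of values at one dose cannot be estimated. The small number of arrays also limits the precision of these values. Where values are listed by rising dose, the doses are 0, 1 and 10 µg/ml for neurons and 0, 1, 10 and 100 µg/ml for astrocytes. The genes were picked with results of these arrays known, and their values are therefore described without a test.

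These genes act in a chain that runs from a secreted or membrane-held ligand to a receptor tyrosine kinase on the same or a neighbouring cell. The receptor then passes the signal through Ras, Raf and MEK to the kinase ERK, which in turn switches on immediate early genes and genes that dampen the receptor. In the brain, PDGF receptor alpha is best known from oligodendrocyte precursors and from fibroblasts of the meninges, FGF2 and pleiotrophin are made by glia, and VEGF-A acts on blood vessels and on neurons.

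Signals are the authors' linear intensities, scaled to a 2%-trimmed mean between 500.731 and 500.874 on every array. A floor was set at 17.9, the 25th percentile over the arrays, before log2 was taken, and a probe set with a mean above the median signal, 79.9, was called bright. Across probe sets, Pearson's r between the 3 neuron arrays was 0.987 to 0.988 on the log2 scale. The astrocyte array at 100 µg/ml correlated at 0.931 to 0.951 with the other astrocyte arrays. The median probe set of that array lay at -0.26 on the log2 scale relative to untreated astrocytes (-0.09 after quantile normalization), and changes at 100 µg/ml are also given relative to -0.26. The cultures were checked against marker genes of cell types. Neuron markers summed to 18234 to 19243 in neurons and to 1038 to 2091 in astrocytes, where 3 of the 10 measured, Syt1, Slc32a1 and Chgb, were under the floor on every array. Astrocyte markers summed to 58838 to 59165 in neurons and to 63389 to 72942 in astrocytes, so these genes were present in both kinds of culture.

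The 250 bases before the transcription start are printed for the genes whose signals differed most with dose, from RefSeq (assembly GRCr8). Of the 8 genes, 7 were found in that table, with 8 entries. Capitals mark TGANTCA, with any base at N, a loose form of the AP-1 motif that Fos and Jun proteins bind. They also mark the GC box GGGCGG, bound by Sp1. Both were sought on either strand, and the motifs did not overlap.
Hbegf promoter, GRCr8 chr18:28390221-28390470, minus strand: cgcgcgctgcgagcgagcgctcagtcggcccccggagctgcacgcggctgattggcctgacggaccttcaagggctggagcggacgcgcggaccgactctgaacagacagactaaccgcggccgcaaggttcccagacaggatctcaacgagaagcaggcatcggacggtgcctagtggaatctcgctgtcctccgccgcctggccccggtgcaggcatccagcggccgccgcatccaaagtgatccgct
Pdgfra promoter, GRCr8 chr14:33408517-33408766, minus strand: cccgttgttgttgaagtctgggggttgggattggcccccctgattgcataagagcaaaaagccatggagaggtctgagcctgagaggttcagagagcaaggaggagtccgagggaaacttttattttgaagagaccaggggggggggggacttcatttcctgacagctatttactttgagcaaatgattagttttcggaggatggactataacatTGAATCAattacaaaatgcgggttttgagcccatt
Ptn promoter, GRCr8 chr4:66342333-66342582, minus strand: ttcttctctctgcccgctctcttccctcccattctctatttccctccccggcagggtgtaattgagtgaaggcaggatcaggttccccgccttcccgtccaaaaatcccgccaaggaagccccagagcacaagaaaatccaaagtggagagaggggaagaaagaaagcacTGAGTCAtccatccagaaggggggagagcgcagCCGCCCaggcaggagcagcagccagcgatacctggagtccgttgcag
Vegfa promoter, GRCr8 chr9:22452604-22452853, plus strand: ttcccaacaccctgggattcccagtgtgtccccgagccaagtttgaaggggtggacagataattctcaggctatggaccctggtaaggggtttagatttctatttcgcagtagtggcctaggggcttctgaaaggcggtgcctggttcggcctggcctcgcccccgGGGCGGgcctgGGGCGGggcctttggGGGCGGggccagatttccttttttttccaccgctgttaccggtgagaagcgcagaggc
Pdgfa promoter, GRCr8 chr12:20759116-20759365, plus strand: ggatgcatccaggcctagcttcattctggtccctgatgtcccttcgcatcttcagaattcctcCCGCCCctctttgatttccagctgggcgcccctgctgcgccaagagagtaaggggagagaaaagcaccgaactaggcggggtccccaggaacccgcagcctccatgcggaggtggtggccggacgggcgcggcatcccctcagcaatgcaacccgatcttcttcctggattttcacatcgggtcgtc
The Pdgfra window held 1 match to the loose AP-1 pattern, TGAATCA, which began 35 bases before the start. The Ptn window held 1, TGAGTCA, which began 80 bases before it. Of 33469 promoters, 6.34% held this pattern with any base at N. The Vegfa window held 3 GC boxes, and the windows of Pdgfa and Ptn held 1 each, where 30.5% of all promoters held at least 1. The second entry of Vegfa, not printed, held 0. The Hbegf window held neither, and 67.6% of its bases were G or C, against a median of 51.2% over all promoters. This share was also above the median for Pdgfa (60.8%), Vegfa (60.4%) and Ptn (57.6%), and below it for Pdgfra (47.2%). The cAMP response element TGACGTCA (1.59% of promoters), the hypoxia response core ACGTG (16.6%) and the TATA box TATAAA (12.9%) were in none of the 5 windows, with Vegfa shown at the first of its 2 entries. A match is a description of letters and not a site.

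Of the 8 genes at their brightest probe sets, Hbegf differed most from untreated astrocytes at the top dose. Hbegf encodes heparin-binding EGF-like growth factor, a membrane-anchored ligand of the EGF receptor that metalloproteases release. Its bright probe set, L05489_at, gave 182.4, 211.6 and 189.1 in neurons by rising dose, and 74.8, 118.2, 104.2 and 650.2 in astrocytes by rising dose. The astrocyte array at 100 µg/ml stood above every other array, 8.69-fold over untreated astrocytes and 6.24-fold over astrocytes at 10 µg/ml. On the log2 scale the difference from untreated astrocytes was 3.12, or 3.38 relative to the median probe set, and it ranked 41 from the top of 2694 bright genes. At 1 and 10 µg/ml the log2 differences were 0.66 and 0.48 in astrocytes, and 0.21 and 0.05 in neurons. Below 100 µg/ml the cell types did not overlap: Hbegf averaged 194 ± 15.3 in neurons and 99.1 ± 22.2 in astrocytes (SD over the 3 shared doses, n = 3 each). In bulk cultures, fewer cells of a type and less RNA per cell cannot be told apart.

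The 2 probe sets of Hbegf differed widely. The other one, rc_AI059540_at, gave 23.0, 27.6 and 4.2 in neurons by rising dose, and 12.5, 16.9, 10.4 and 22.8 in astrocytes by rising dose. It was under the floor on 4 of 7 arrays and never bright. Its log2 difference at 100 µg/ml was 0.35, against 3.12 for L05489_at. The large value thus rests on 1 probe set and 1 array.

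Egfr encodes the receptor that binds HB-EGF, amphiregulin and EGF. Its only probe set, M37394_at, was dim and gave 38.5, 66.6 and 57.0 in neurons by rising dose. In astrocytes at 0, 1, 10 and 100 µg/ml it gave 34.7, 11.4, 5.9 and 4.6, under the floor on the 3 treated arrays. Treated astrocytes were at least 1.94-fold lower than untreated ones, the fold between the untreated signal and the floor. Neurons lay above astrocytes at the shared doses without overlap, at 54.0 ± 14.3 against 17.3 ± 15.3 (SD, n = 3 each).

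Pdgfa encodes the A chain of platelet-derived growth factor, the main ligand of the alpha receptor. Its brightest probe set, D10106_s_at, gave 153.6, 122.1 and 130.9 in neurons by rising dose, and 218.2, 167.7, 196.9 and 72.7 in astrocytes by rising dose. The 100 µg/ml array was the lowest of all 7 and lay below untreated astrocytes by a log2 difference of -1.59, or -1.33 relative to the median probe set. The second probe set, Z14120cds_s_at, lay under 79.9 on every array and differed by only -0.25 at that dose.

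Pdgfra encodes PDGF receptor alpha, and it had the widest spread over the astrocyte arrays in absolute signal. Probe set rc_AI232379_at gave 1538.4, 1498.7 and 1539.7 in neurons by rising dose, with log2 differences of -0.04 and 0.00 from the untreated array. In astrocytes it gave 3730.1 at 0, 4949.7 at 1, 7779.8 at 10 and 1231.8 at 100 µg/ml. The order was thus not that of the dose: the array at 10 µg/ml was 2.09-fold above the untreated one, and the array at 100 µg/ml was 3.03-fold below it and 6.32-fold below that at 10 µg/ml. Set against astrocytes at 1 µg/ml in place of untreated ones, the log2 difference at 10 µg/ml was 0.65, under 2-fold, against 1.06. The log2 difference at 100 µg/ml was -1.60, or -1.34 relative to the median probe set. At the shared doses Pdgfra was 3.43-fold lower in neurons, at 1526 ± 23.3 against 5487 ± 2078 in astrocytes (SD, n = 3 each), with no overlap.

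The other 3 probe sets of Pdgfra were dim. Z14118cds_g_at and Z14118cds_at, named for the same source sequence, gave 41.8 to 55.0 and 24.3 to 29.1 in astrocytes, and rc_AI137657_at was under the floor on all 7 arrays. The log2 differences of the 4 probe sets at 100 µg/ml ranged from -1.60 to 0.13. As Pdgfra also marks other cells, the marker lists are given beside it. Fibroblast and meningeal markers, all 9 measured, summed to 8146 to 10005 in neurons and to 55783, 49437, 45419 and 48643 in astrocytes by rising dose. Oligodendrocyte lineage markers, 6 of 8 measured, summed to 824 to 884 in neurons and to 5666 to 7454 in astrocytes, with 7454 at 100 µg/ml. Most of the astrocyte sum was Mbp, at 3231.5 to 5222.2, with 5222.2 at 100 µg/ml. Cspg4 of the same list went the other way, at 129.4 to 165.4 in neurons and 95.1 to 122.0 in astrocytes. Microglia and macrophage markers, 6 of 7 measured, summed to 495 to 801 in neurons and to 4887, 5600, 5860 and 2346 in astrocytes by rising dose. Between 0 and 100 µg/ml in astrocytes, Aif1 went from 1636.5 to 250.8 and C1qb from 2722.1 to 1579.3. Cd53 went from 425.3 to 403.3 and Ptprc from 70.0 to 66.2. The dim Itgam and Csf1r were at log2 differences of 0.20 and 0.39. Endothelial and pericyte markers, 4 of 8 measured, summed to 1322 to 1619 in neurons and to 945 to 1408 in astrocytes. Most of this was Acta2, at 1231.0 to 1518.4 in neurons and 866.8 to 1329.1 in astrocytes. Single markers differed within a list. At 100 µg/ml the fibroblast markers Dcn and Col3a1 were at log2 differences of -1.97 and 0.03 from untreated astrocytes, and the oligodendrocyte lineage markers Sox10 and Mbp at -1.41 and 0.42. Dcn, Col3a1, Sox10, Mbp, Cspg4 and Acta2 were picked with their values in view. The part of these cells in the Pdgfra values was not tested.

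Fgf2 encodes basic fibroblast growth factor. Probe set X07285cds_s_at gave 91.1, 69.9 and 73.5 in neurons by rising dose, and 142.5, 159.9, 252.4 and 140.2 in astrocytes by rising dose. The 10 µg/ml array was the highest, at a log2 difference of 0.82, and that at 100 µg/ml was near the untreated one, at -0.02 (0.24 relative to the median probe set and 0.40 after quantile normalization). The second probe set, M22427_at, had the same order of 0, 1 and 10 µg/ml, at 56.5, 79.7 and 103.8, and gave 42.9 at 100 µg/ml. Every neuron array was below every astrocyte array at X07285cds_s_at, and the mean log2 difference at the shared doses was -1.21. At M22427_at the cell types overlapped, and that difference was -0.61.

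Fgfr1 encodes a receptor of FGF2 and was higher in neurons at both bright probe sets. S54008_i_at gave 1132.1, 1314.9 and 1312.8 in neurons by rising dose, and 752.5, 590.3, 799.2 and 508.9 in astrocytes by rising dose. D12498_s_at gave 760.0, 752.5 and 712.0 in neurons and 474.5, 494.1, 417.0 and 413.9 in astrocytes at the same doses. The log2 differences between neurons and astrocytes at the shared doses were 0.82 and 0.69, and the cell types did not overlap at either. At 100 µg/ml the differences from untreated astrocytes were -0.56 and -0.20, on either side of the median of -0.26. The third probe set, AF000144_at, was under the floor on 4 arrays.

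Vegfa encodes vascular endothelial growth factor A, and its 4 probe sets did not share a direction. The one with the highest mean, rc_AA850734_at, was dim and gave 41.9, 27.5 and 36.3 in neurons by rising dose, against 42.2, 59.9, 90.4 and 118.1 in astrocytes by rising dose. L20913_s_at gave 53.4, 17.8 and 24.2 in neurons, against 24.5, 55.6, 65.2 and 136.7 in astrocytes. Both were higher at each step of the astrocyte dose series, to 2.80-fold and 5.58-fold over untreated astrocytes at 100 µg/ml, log2 differences of 1.48 and 2.48. M32167_at, with 86.8, 34.0 and 92.3 in neurons, gave 66.5, 25.6, 30.9 and 28.6 in astrocytes, where each treated array was lower than the untreated one, by a log2 difference of -1.22 at 100 µg/ml. M32167_g_at was under the floor on 4 of 7 arrays. With no bright probe set and opposite signs, the array gave no single direction for Vegfa.

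Ptn encodes pleiotrophin, a heparin-binding growth factor that acts through the receptor phosphatase Ptprz1 and through syndecans. Its only probe set, rc_AI102795_at, gave 1771.3, 2593.8 and 1740.7 in neurons by rising dose, and 2194.3, 1211.4, 1563.1 and 900.1 in astrocytes by rising dose. All 3 treated astrocyte arrays were below the untreated one, by log2 differences of -0.86, -0.49 and -1.29, the last 2.44-fold and -1.03 relative to the median probe set. Set against astrocytes at 1 µg/ml, the value at 100 µg/ml was -0.43, so its size depended on the untreated array. In neurons the 1 µg/ml array alone was high, at 0.55, which ranked 57 from the top of 2778 bright genes. The neuron and astrocyte arrays of Ptn overlapped at the shared doses.

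**Figure D1:**
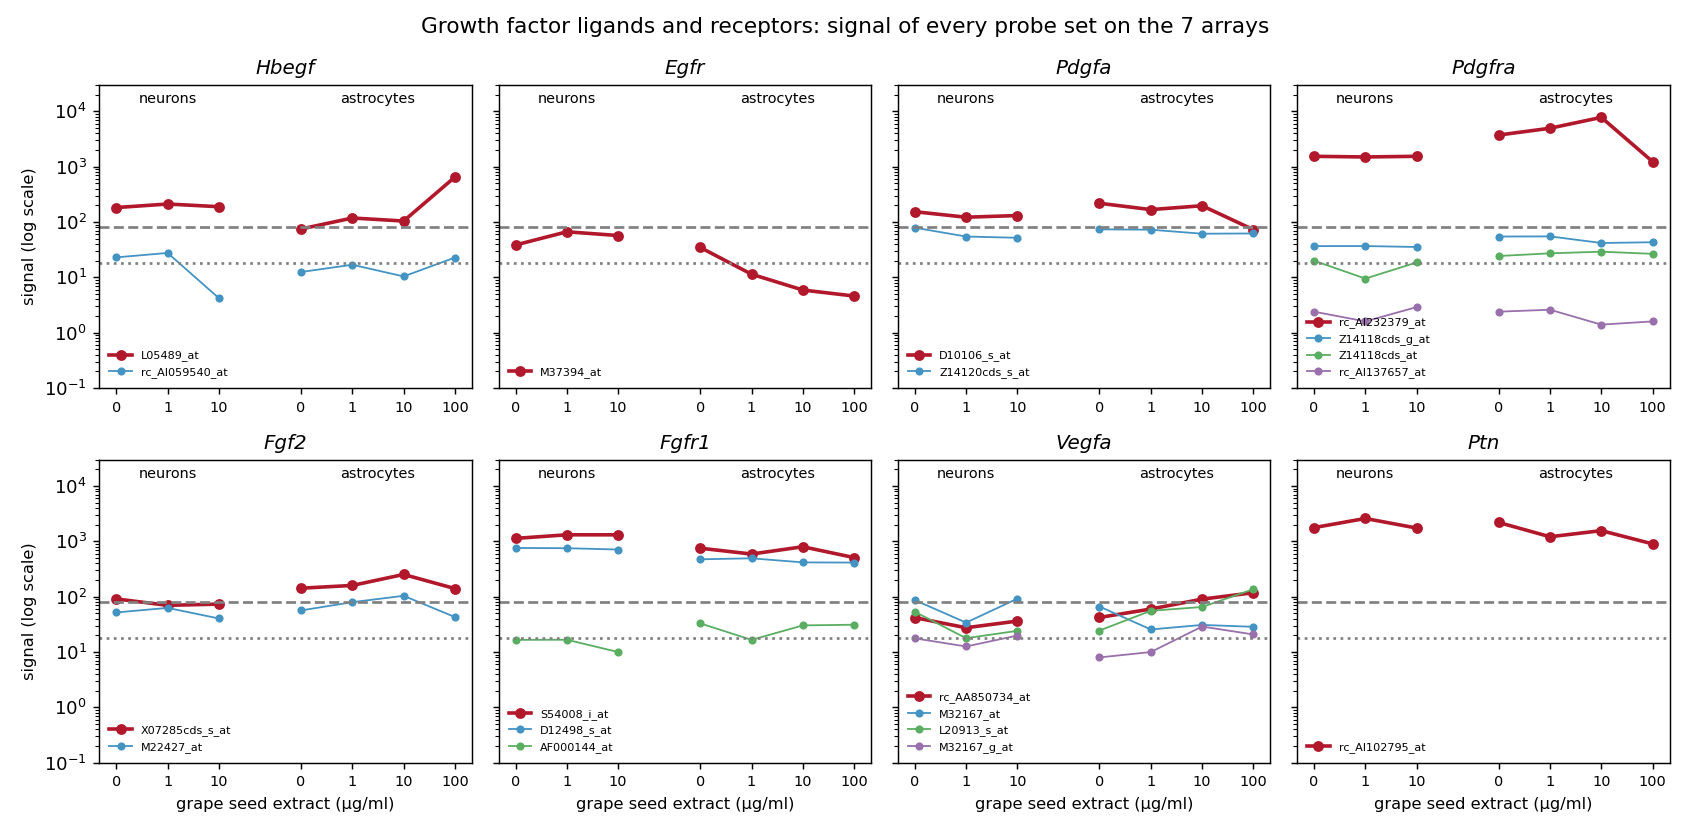
Signal of every probe set of the 8 genes on each array, on a log axis, against the dose of grape seed extract in µg/ml, with neurons left of astrocytes; the thick red line is the brightest probe set of a gene, the dotted line the floor of 17.9 and the dashed line the median signal of 79.9. The brightest Hbegf probe set reaches 650.2 in astrocytes at 100 µg/ml, while the other stays at or under 27.6 on every array.

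Read side by side at their brightest probe sets, the bright members stayed under 2-fold with dose in neurons, which were not given 100 µg/ml. In astrocytes they differed in both directions, with only Pdgfra past 2-fold below that dose. In neurons, 5 of the 8 were bright, and none reached a 2-fold difference at 1 or 10 µg/ml, where 0.576% and 0.792% of all bright genes did. Ptn in neurons at 1 µg/ml, at 0.55, lay above the 95th percentile of all bright genes there, 0.40. In astrocytes, 6 were bright. None of them reached 2-fold at 1 µg/ml (1.71% of all bright genes) and 1, Pdgfra, was higher by this much at 10 µg/ml (6.61% in either direction, 4.34% higher). At 100 µg/ml, 4 of the 6 did, Hbegf higher and Pdgfa, Pdgfra and Ptn lower, where 25.8% of all bright genes did, 6.31% higher and 19.5% lower. The genes were chosen with these values known, so nothing is read from that count. The median of the 6 was -0.92 on the log2 scale at 100 µg/ml, against -0.28 over all bright genes. The values lay between the 5th and 95th percentile of all genes, -1.92 and 1.21, for 5 of the 6, with Hbegf above.

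**Figure D2:**
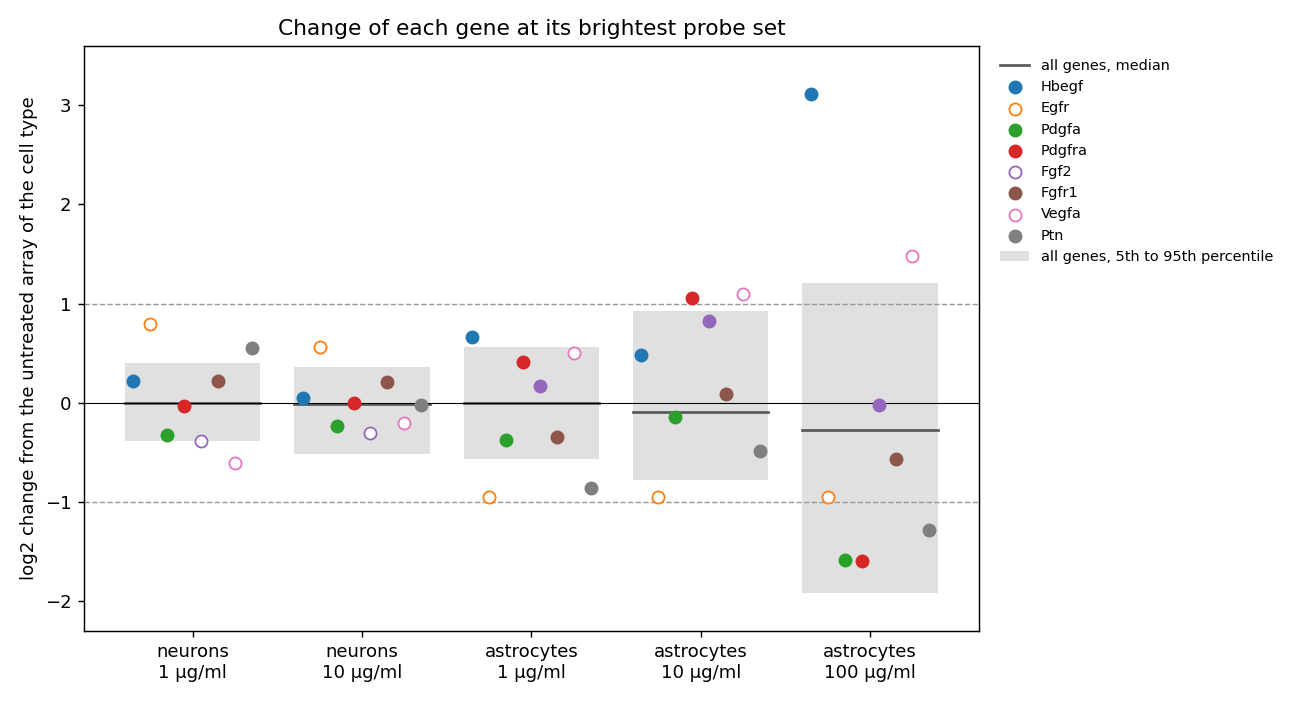
Log2 change of each gene at its brightest probe set from the untreated array of its cell type, for neurons and astrocytes at each dose; filled points passed the brightness filter of that cell type and open points did not, the grey bars span the 5th to 95th percentile of all bright genes and the dark lines are their medians. At 100 µg/ml Hbegf lies at 3.12, above the bar, and Pdgfa, Pdgfra and Ptn lie between -1.60 and -1.29, inside it.

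Between the cell types, each gene was read at the probe set brightest over the arrays at the shared doses, a choice made after seeing the data. The arrays did not overlap for 6 of the 8 genes, with Hbegf, Egfr and Fgfr1 higher in neurons and Pdgfa, Pdgfra and Fgf2 lower in neurons. Ptn and Vegfa overlapped. The 8 include the dim Egfr and Vegfa, and no share over dim and bright genes together is given for this count. The Vegfa probe set in question, M32167_at, had a mean log2 difference of 0.79, while rc_AA850734_at, the brightest once the 100 µg/ml array was included, did not overlap and was at -0.82. Among the 6 genes that were bright over these arrays 5 did not overlap, which is to be read against 55.2% of all bright genes. Fgf2 was bright there through astrocytes, since its mean in neurons was under the filter. At the probe sets brightest over the shared doses, Hbegf and Egfr were both higher in neurons, and Pdgfa and Pdgfra both lower. Fgf2 was lower and Fgfr1 higher. The second probe sets of Hbegf, Pdgfa and Fgf2 overlapped between the cell types, at mean log2 differences of 0.33, -0.19 and -0.61. D12498_s_at of Fgfr1 did not overlap, nor did Z14118cds_g_at and Z14118cds_at of Pdgfra, both dim and named for the same sequence. AF000144_at of Fgfr1, under the floor on 4 arrays, overlapped and was lower in neurons, at -0.55. Egfr was dim, and under the floor in astrocytes at 1 and 10 µg/ml. Without the extract it gave 38.5 in neurons and 34.7 in astrocytes.

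The other genes of these pathways were tested between the cell types with limma over the 3 neuron and 3 astrocyte arrays at 0, 1 and 10 µg/ml. Of 115 genes listed, 66 were on the array and 34 were bright. In neurons 8 of the 34 were higher and 4 lower at a Benjamini-Hochberg adjusted p under 0.05, against 22.3% and 19.4% of all 2754 bright genes (41.8% in either direction). The median log2 difference was 0.23 for the 34 and 0.04 for all bright genes. The spread in this test is that between doses of 1 cell type, since no culture was repeated.

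Kdr, the main signalling receptor of VEGF-A, gave 293.1, 209.6 and 182.5 in neurons and 47.7, 38.0 and 30.2 in astrocytes, a log2 difference of 2.56 ± 0.26 (SE, limma adjusted p = 0.000138). Kdr passed the brightness filter through neurons alone, its astrocyte mean being 38.6, so its entry into the test already favoured a difference. Spry1, a feedback inhibitor of receptor tyrosine kinases, was higher in neurons by 2.20 ± 0.22 (limma adjusted p = 0.000127), and Dusp6, the phosphatase of ERK, by 1.53 ± 0.15 (limma adjusted p = 0.000124). Nrg1, the EGF-like ligand neuregulin 1, was higher by 1.74 ± 0.23 (limma adjusted p = 0.000546). Of the pleiotrophin partners, Ptprz1 averaged 1706 ± 77.4 in neurons and 673 ± 20.0 in astrocytes (SD, n = 3 each; limma adjusted p = 2.81e-05), and the heparan sulphate proteoglycan Sdc1 was higher in neurons by 1.00 ± 0.21 (limma adjusted p = 0.00586). Ccnd1, cyclin D1, was higher by 1.19 ± 0.15 (limma adjusted p = 0.000531). The call of Spry1 was lost when the 100 µg/ml array was added (limma adjusted p = 0.0736). Akt1, a kinase downstream of PI3 kinase, was higher by 0.37 ± 0.12 (limma adjusted p = 0.0403), a call that held under 6 of 13 alternatives and was lost without the neuron array at 0 or 1 µg/ml or the astrocyte array at 1 or 10 µg/ml (adjusted p up to 0.158).

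Lower in neurons were Errfi1, an inhibitor of the EGF receptor kinase, Ier3, Cd9 and Araf. Errfi1 averaged 354 ± 18.5 in neurons and 2135 ± 1198 in astrocytes (SD, n = 3 each), a log2 difference of -2.44 ± 0.35 (SE, limma adjusted p = 0.00094). The astrocyte means of Errfi1 and Ier3 span values that rose with dose. Without the extract Errfi1 gave 372.2 in neurons and 1130.9 in astrocytes, and Ier3 gave 196.9 and 315.4. In astrocytes at 10 µg/ml these genes gave 3461.0 and 656.9. Cd9, a tetraspanin that binds membrane-anchored HB-EGF, was at -0.92 ± 0.13 (limma adjusted p = 0.000757). Ier3, an immediate early gene, averaged 209 ± 10.5 in neurons and 441 ± 188 in astrocytes (SD, n = 3 each; limma adjusted p = 0.0183), and Araf, a Raf kinase, was at -0.60 ± 0.15 (limma adjusted p = 0.0152). The calls of Ier3 and Araf were lost without the untreated neuron array, and without the brightness filter. That of Ier3 was also lost with all 7 arrays and without neurons at 1 µg/ml. Their limma adjusted p reached 0.146 and 0.0661 over all alternatives. In the same fit, 2 of 9 bright astrocyte markers, Slc1a3 and Aqp4, were higher in neurons and 4 lower, and all 8 bright fibroblast and meningeal markers were lower in neurons. The part of these cells in the pathway differences was not tested.

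**Figure D3:**
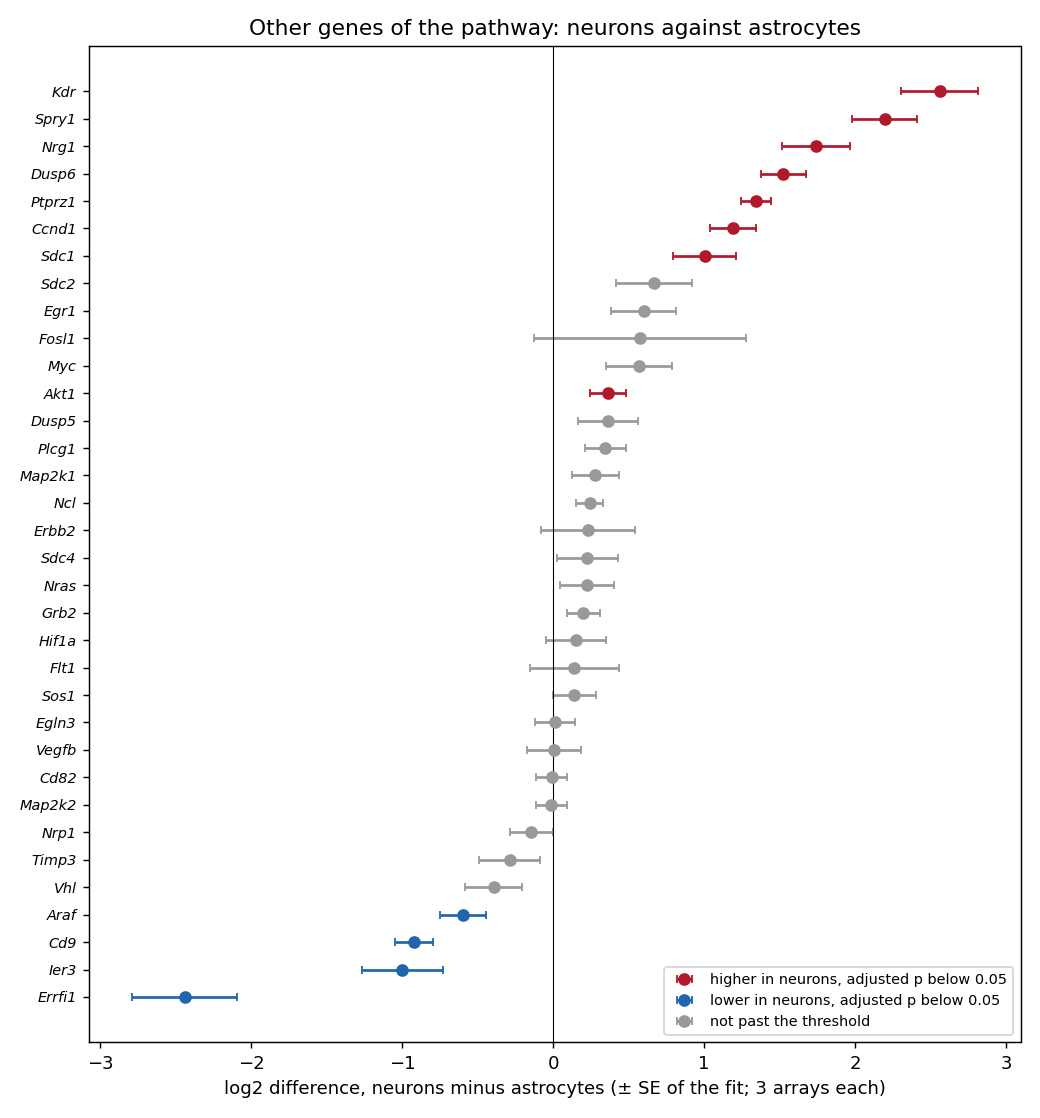
Log2 difference between neurons and astrocytes for the 34 bright pathway genes outside the 8, with the SE of the limma fit (3 arrays each, at 0, 1 and 10 µg/ml), ordered by size. Kdr at 2.56 and Spry1 at 2.20 are at the top, and Errfi1 at -2.44 is at the bottom.

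By dose, other pathway genes differed by 2-fold or more in astrocytes at the higher doses. In neurons, 0 of 36 bright pathway genes reached 2-fold at 1 or at 10 µg/ml, where 0.576% and 0.792% of all bright genes did. In astrocytes 0 of 32 did at 1 µg/ml, where 1.71% of all bright genes did. At 10 µg/ml 4 of 32 did, where 6.61% of all bright genes did, with Fosl1, Errfi1 and Ier3 higher and Sdc2 lower, against 1 when astrocytes at 1 µg/ml were the baseline; the split was 3 higher and 2 lower after quantile normalization and 3 and 0 after centring. At 100 µg/ml, 13 of 32 did, 7 higher and 6 lower, where 25.8% of all bright genes did, 6.31% higher and 19.5% lower. The split was 9 and 4 after quantile normalization and 8 and 3 after centring. The median log2 difference of the 32 at 100 µg/ml was -0.07, against -0.28 over all bright genes. The pathway lists were chosen with earlier results of these data known, so nothing is read from the counts by list.

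Of 9 bright ERK targets and feedback genes, 5 were at least 2-fold higher and 1, Dusp6, lower at 100 µg/ml, where 6.31% of all bright genes were higher and 19.5% lower, and the median of the 9 was 1.37. Relative to the median probe set, 6 were higher and 0 lower, as Dusp6 then fell just short of 2-fold. Myc, at 1.21, was the gene added, and its probe sets ranged from 0.02 to 0.95 before this centring. The list was chosen with earlier results of these data known, so nothing is read from these counts. Fosl1, a Fos-family subunit of AP-1, gave 294.2, 266.5 and 230.0 in neurons by rising dose, and 74.0, 113.4, 647.6 and 1538.1 in astrocytes by rising dose. It was 8.75-fold and 20.8-fold over untreated astrocytes at the last 2 doses, and 4.64 on the log2 scale relative to the median probe set at 100 µg/ml. Ier3 gave 315.4, 350.6, 656.9 and 4227.3 in astrocytes, and Egr1, an immediate early transcription factor, 2967.0, 2765.8, 5073.9 and 22748.1. At 100 µg/ml these were 13.4-fold and 7.67-fold over untreated astrocytes, and the probe sets of Egr1 ranged from 2.02 to 5.74 on the log2 scale. Spry1 gave 188.0, 176.2, 258.3 and 976.6 in astrocytes, 2.64 relative to the median. Errfi1 was highest at 10 µg/ml, at 1130.9, 1811.7, 3461.0 and 2931.1. As with Hbegf, the 100 µg/ml array was the highest astrocyte array for Fosl1, Ier3, Egr1 and Spry1.

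Ligands and coreceptors differed as well. Areg, amphiregulin, another ligand of the EGF receptor, gave 21.5, 23.8 and 34.7 in neurons, and 5.1, 33.3, 34.3 and 954.9 in astrocytes by rising dose. It was at least 53.3-fold over untreated astrocytes, where its signal was under the floor, and its mean in astrocytes was below the brightness filter. Sdc2 and Sdc4, syndecans that bind heparin-binding growth factors, went in opposite directions. Sdc2 gave 1145.8, 1055.6, 569.5 and 118.8 in astrocytes by rising dose, 9.64-fold lower at 100 µg/ml, and Sdc4 gave 6543.7, 6582.9, 11458.5 and 24509.5, 3.75-fold higher. The naming rule also gave dim genes with signals under the floor, for which only bounds can be stated. In astrocytes at 1 µg/ml Pdgfrb was at least 3.80-fold lower than without the extract, and at 100 µg/ml Fgf5 was at least 3.04-fold lower. In neurons Pdgfrb and Lif were at least 3.68-fold and 2.72-fold higher at 1 µg/ml, and Fgf16 was at least 2.23-fold lower at 10 µg/ml. Vegfd, dim but above the floor, was 2.95-fold lower in neurons at 1 µg/ml. Of 8 bright genes that relay the receptor signal, 3 were lower by 2-fold or more in the 100 µg/ml array, where 19.5% of all bright genes were, and the median of the 8 was -0.89. These 3, named after their values were seen, were the MEK kinases Map2k1 and Map2k2 and the small GTPase Nras, at -1.09, -1.45 and -1.24. Relative to the median probe set they were at -0.83, -1.19 and -0.98, which left Map2k2 alone past 2-fold. Nrp1, a coreceptor of VEGF-A that was likewise chosen after its values were seen, gave 403.1, 417.7, 325.8 and 135.9. None of the 3 bright hypoxia factors, Hif1a, Egln3 and Vhl, reached 2-fold.

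**Figure D4:**
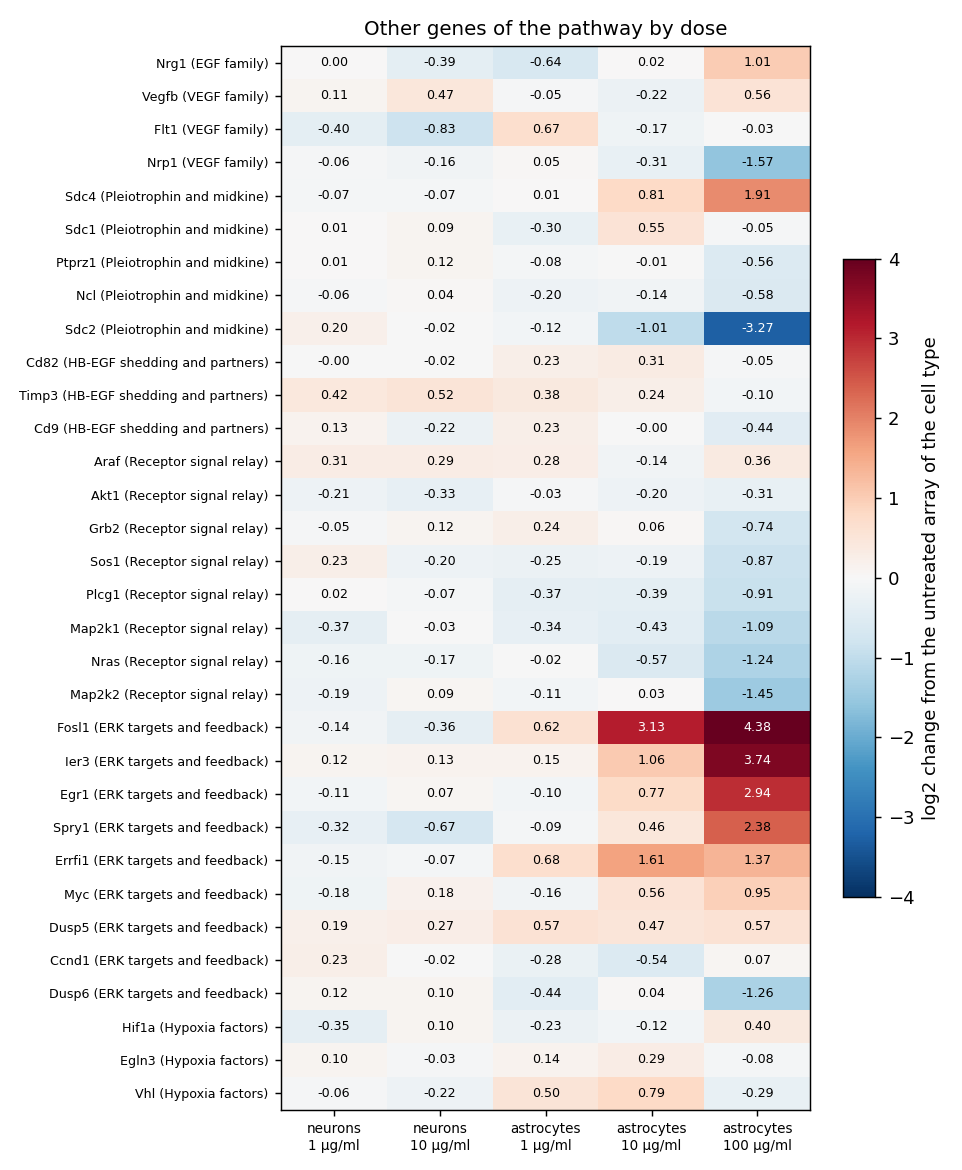
Log2 change from the untreated array of the cell type for the 32 pathway genes outside the 8 that were bright in astrocytes, by cell type and dose, grouped by list, with red for higher and blue for lower. The deepest red is Fosl1 at 4.38 and the deepest blue Sdc2 at -3.27, both in astrocytes at 100 µg/ml.

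For the 5 genes that reached 2-fold at any dose at their brightest probe set, the most similar genes were sought among 2694 genes. These were bright in astrocytes, whatever their signal in neurons, and were ranked by the root mean square difference of the 5 log2 changes. For Hbegf these were Il1rl1 (0.29), Polg2 (0.35), Egr1 (0.40), F3 (0.42) and Klf6 (0.42). Il1rl1, a receptor of interleukin 33, was at 676 in astrocytes at 100 µg/ml and at 62.7 in untreated ones. In neurons it was at 3.1, 3.3 and 5.2 by rising dose, under the floor. Its neuron changes were therefore set to 0 by the floor, which by itself brought them near the small ones of Hbegf. For Pdgfa they were Ctbp1 (0.14), Ireb2 (0.14), Nat1 (0.16), Mapk14 (0.16) and Ylpm1 (0.16), and for Ptn Prrc2c (0.20), Cyp2e1 (0.24), Sfmbt1 (0.25), Prps2 (0.25) and Gchfr (0.26). For Pdgfra, with its high value at 10 and low value at 100 µg/ml, they were Rabep1 (0.26), Lgals3bp (0.27), Eif5 (0.27), Slc22a5 (0.28) and Stat5a (0.31). For the dim Vegfa probe set they were Slfn2 (0.27), Litaf (0.30), Pfkp (0.31), Znrf1 (0.31) and Chka (0.31). Each profile rests on 5 differences that share 2 untreated arrays, and it describes these 7 arrays.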

How the data were processed

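The authors extracted total RNA on silica membranes, labelled 100 ng with biotin and hybridized it to Affymetrix rat arrays, per the labels' protocols. The deposited values are linear signal intensities, computed with GCOS per the submitters' processing notes. Its version is not given in the sources used here, nor are its settings, and the scale was kept. Of 8799 probe sets, 59 controls were left out. Of the remaining 8740, the platform annotation gave 1 symbol to 7006, several to 308 and none to 1426. Of the symbols, 6985 were found by gene ID in RefSeq and 0 changed.

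Signals were floored at 17.9 and log2 was taken. Brightness filters at 79.9, on the mean over the arrays compared, kept 4377 probe sets between cell types, 4453 in neurons and 4252 in astrocytes. Of the 19 probe sets of the 8 genes, 7, 6 and 7 passed these filters. A gene was represented by its brightest probe set. Cell types were compared with limma 3.58.1 under R 4.3.3 (lmFit and eBayes, trended prior, 4 residual degrees of freedom), two-sided, with Benjamini-Hochberg adjustment over all probe sets tested; the script was tested on simulated data. Doses were compared as log2 differences of single arrays, with no test. No pair of arrays was identical. Nothing in the labels says that arrays came from separate cultures or animals, so p-values measure only the spread between these arrays.

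The 8 genes, the pathway and marker lists and the tests were chosen with earlier results of these data known. Pathway genes were named for the largest called differences between cell types without overlap (up to 8 each way), and for the 10 largest differences in astrocytes and 4 in neurons at 2-fold or more, bright or not. For each member at 2-fold, the 5 most similar genes were named. Alternatives were quantile normalization, centring, other floors and filters, other baselines, a constant prior, dose as a block, mean probe sets and leaving out arrays. Promoter windows came from RefSeq, and Python 3.11.15 with matplotlib 3.10.9 drew the figures.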

Additional observations from a re-analysis of the deposited data

How the results depend on the processing

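Between cell types, 1845 probe sets passed limma's threshold. The count was 1166 with all 7 arrays and 1034 with a filter at the 75th percentile of signal (435.7), which tests fewer probe sets; for the first the cause was not tested. Leaving out each array gave 1346 to 2023. Pathway genes called numbered 12, with 9 to 16 when each array was left out and 9 to 15 under the other alternatives. None of the 12 changed direction. Without a filter on low signal, pathway genes at 2-fold numbered 3, 9 and 20 in astrocytes by rising dose (0, 4 and 13 with the filter), and in neurons 3 and 1 at the low and high dose (0 and 0); more genes are tested without it. At 10 µg/ml in astrocytes the count was 2 against the mean of the lower doses and 1 against the 1 µg/ml array, a baseline chosen after seeing the data; the cause was not tested. For the 8 genes, 5 values at their bright, brightest probe sets reached 2-fold, and over 25 recomputed values all 25 kept the direction and 21 stayed at 2-fold. The 4 that did not were Pdgfra at 10 µg/ml (0.86 against the mean of the lower doses, 0.65 against 1 µg/ml) and Ptn at 100 µg/ml (-0.84 and -0.43). The 1 array per combination and dim signals limit all dose values; 12 of 19 probe sets passed no filter. With neurons and astrocytes paired by dose, as a block, 1638 probe sets and 15 pathway genes were called.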
